A study of Schizosaccharomyces pombe with 10 samples.

Results

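The comparison set 2 RNA-seq libraries of cells given hydroxyurea against 2 of untreated cells, 4 of the 10 libraries of the series, over all 6661 features of the deposited count table. All were made from total RNA of strain PT286, whose genotype beyond "WT" the labels do not spell out, grown at 30 °C in YES, a rich yeast extract medium. The hydroxyurea cells had been cultured for 16 h, had their medium changed, were given 10 mM hydroxyurea and were taken 8 h later. Camptothecin at 20 µM (a topoisomerase I poison), methyl methanesulfonate (MMS) at 0.02% (an alkylating agent) and phleomycin at 5 µg/mL (a DNA-breaking glycopeptide) were given on the same schedule, with 2 libraries each. The labels do not say whether the untreated cells also had the change of medium and the further 8 h, so in every comparison with them the agent cannot be told apart from the medium and the time.

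Hydroxyurea blocks ribonucleotide reductase, the enzyme that makes deoxyribonucleotides, so replication forks slow or stop for want of substrate. In fission yeast (Schizosaccharomyces pombe) the kinase Rad3 senses stalled forks and acts through the adaptor Mrc1 on the effector kinase Cds1, which holds back mitosis and keeps the G1/S transcription factor MBF active. MBF drives cdc22, the gene of the large reductase subunit, together with genes that license origins and start S phase. The enzyme is held in check by the small inhibitor Spd1, which the Cdt2 ubiquitin ligase marks for destruction.

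The hydroxyurea libraries held 39358626 and 39842422 counts and the untreated libraries 40397014 and 45185548, within a range of 37301356 to 48598533 over the series. The chi-square per feature between the libraries of a pair was 3.51 for hydroxyurea and 3.40 for untreated cells, above the sampling noise, so none was a repeated deposit. The labels do not say that libraries came from separate cultures, so each p-value rests on a spread that may be technical and was small (a common coefficient of variation of 2.21%). Protein-coding genes of both mating types were detected, and the summed share of 3 P-cell genes was 0.0495% and 0.0506% of counts in hydroxyurea cells and 0.0516% and 0.0498% in untreated cells. By the test described below 2 of these 3 genes rose and 1 fell. The summed share of 6 M-cell genes was 0.0253% and 0.0248% in hydroxyurea cells and 0.0221% and 0.0231% in untreated cells. Of the 5 tested, 3 rose and 2 fell. Levels are counts per 1000000 counts of the TMM-scaled library (CPM), not corrected for feature length, and every log2 fold change is hydroxyurea over untreated, ± its standard error. A feature is said to have risen or fallen where edgeR's quasi-likelihood test gave a Benjamini-Hochberg adjusted p under 0.05 over the 5734 features tested (4718 protein-coding and 1016 non-coding).

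Most of the transcriptome passed that test. Of the 5734 features, 4536 were called (79.1%), of which 2311 rose (40.3%) and 2225 fell (38.8%), and the median log2 fold change was 0.023. At 2-fold or more the picture was one-sided, with 712 features up (12.4%) and 66 down (1.15%). In 5089 features (88.8%) both hydroxyurea libraries lay on 1 side of both untreated libraries, so with replicates this close a call by itself says little, and the gene lists below are read against these shares.

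The near balance of rises and falls belongs to the scaling between libraries. The scaling sets what level counts as unchanged, and 7 ways of setting it were compared. With library totals alone, 3112 features rose and 1485 fell, the rising share of calls moved to 67.7%, against 50.9% with TMM factors, and the median feature shifted up by 0.18 on the log2 scale. Upper quartile factors shifted it by 0.16 and gave 3005 rises and 1576 falls. DESeq2's size factors shifted it by -0.02 and gave 2221 rises and 2319 falls, and TMM factors made without the ribosomal protein genes gave 2254 and 2268. Quantile normalization, which forces all libraries to 1 distribution, gave 1932 rises and 2283 falls, and it cut the 2-fold rises to 291 while the 2-fold falls went up to 197. TMM factors of protein-coding genes alone gave 2633 rises and 1941 falls. The 6 scalings that work by 1 factor a library thus move all features together over a range of 0.20 on the log2 scale, and the direction of a change smaller than that can depend on which of them is used. Quantile normalization can also turn round larger changes, since it moves features of different levels by different amounts. Under all 7 scalings 1534 features rose, 271 by 2-fold or more, and 1420 fell, 33 by 2-fold or more. The sign was not the same in all 7 for 648 of the 4536 called features (14.3%), 249 that rose and 399 that fell with TMM factors, the largest at 1.89 in size.

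No feature is known to have stayed constant. The actin gene act1, often used as a constant and chosen here after its values were seen, had 3587 and 3617 CPM in hydroxyurea cells, against 4418 and 4480.1 CPM in untreated cells. Its log2 fold change was -0.30 ± 0.015 with TMM factors, and holding it equal in all libraries, a scaling added after the data were seen, would give 3669 rises and 994 falls. The text therefore names the scalings under which the median of a gene group changed sign. Where library totals or quantile normalization moved the rising share of a group's calls by over 10 percentage points, the split of rises to falls under that scaling is given beside the group's counts.

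**Figure D1:**
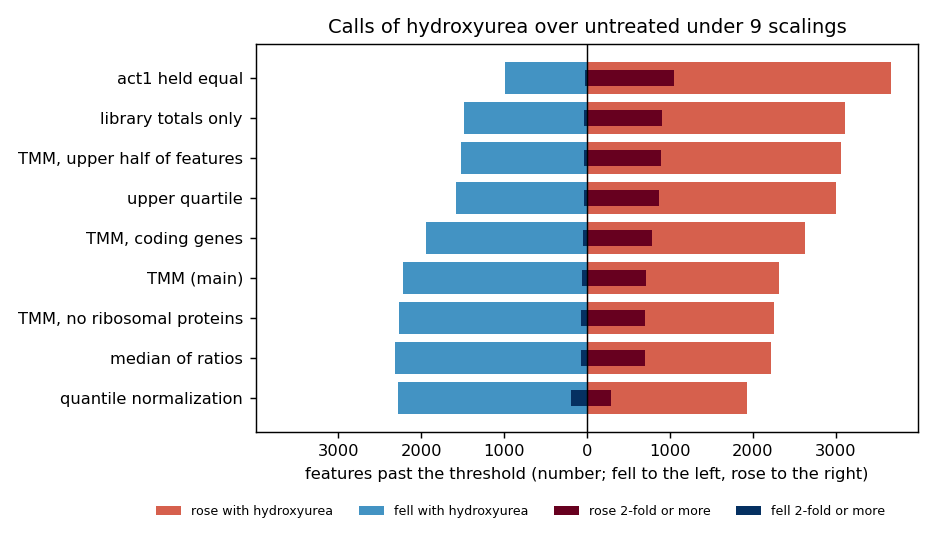
Numbers of features that rose and fell in hydroxyurea cells against untreated cells under 9 scalings of the libraries, 2 of them added after the data were seen. Bars run from 0, and rises run from 1932 with quantile normalization to 3669 with act1 held equal.

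Changes depended on the level of a feature, and quantile normalization differed from the other scalings most at the lower end of expression. Features were put in 10 bands by their mean CPM over all libraries, treated ones included. A weak feature was tested if the libraries of 1 group alone had enough counts, so some may have entered the lowest bands through treated cells. The part of this in the medians of the bands, and in the reading of lists against them, was not tested. The median log2 fold change was 1.09 in the lowest band (0.0827 to 2.12 CPM), 0.73 in the next and 0.36 in the one after, passed below 0 between the fifth and the sixth band, and was -0.26 in the highest (335 to 26700 CPM). The lowest 3 bands held 262, 210 and 124 of the 2-fold rises. In the lowest band the median was 0.82 for protein-coding genes and 1.23 for non-coding features, so with TMM factors the rise of weak features was seen in both. With quantile normalization the lowest band's median was -0.13, with -0.34 for protein-coding genes and 0.034 for non-coding features. To read a gene list, its median can therefore be set beside the median, over its members, of the medians of the level bands they lie in, called the band median below. Weak features took little of the reads: the lowest band held 0.0634% of counts in hydroxyurea cells and 0.0305% in untreated cells.

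**Figure D2:**
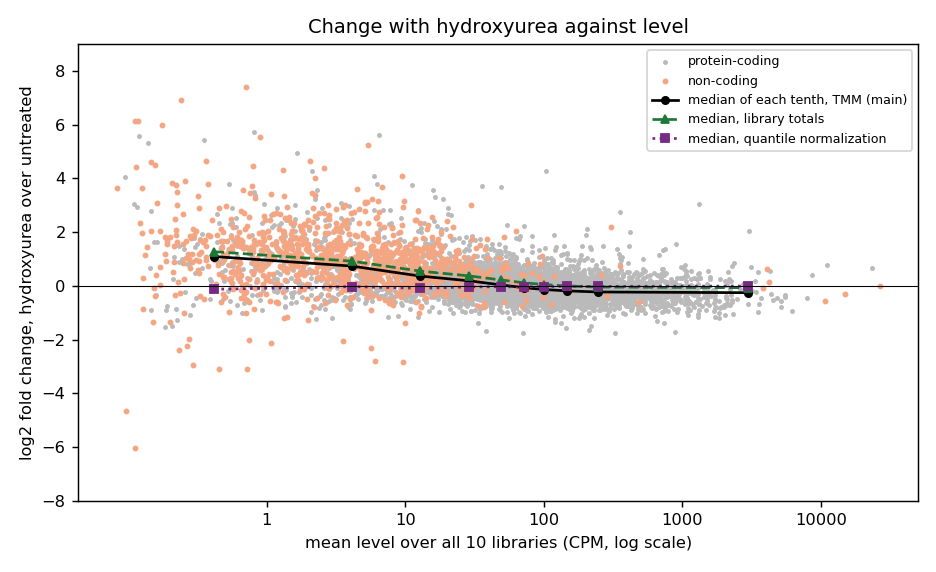
Log2 fold change of hydroxyurea over untreated against the mean level (CPM, log axis) of the tested features, with the median of each of 10 level bands under 3 scalings. With TMM factors band medians run from 1.09 at the lowest levels to -0.26 at the highest.

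Reads also shifted between abundant transcripts. The glyceraldehyde-3-phosphate dehydrogenase gene tdh1 took 2.51% and 2.58% of all counts in hydroxyurea cells, against 1.38% and 1.42% in untreated cells, and the enolase gene eno101 took 1.24% and 1.30% in hydroxyurea cells, against 0.634% and 0.662% in untreated cells. Ribosomal protein genes together took 12.3% and 12.5% of counts in hydroxyurea cells, against 15.1% and 15.2% in untreated cells. The largest single losses were the ubiquitin fusion gene ubi3, with 0.546% and 0.556% in hydroxyurea cells, against 0.913% and 0.927% in untreated cells, and rrk1, the RNA of RNase P, with 0.732% and 0.758% in hydroxyurea cells, against 0.968% and 0.990% in untreated cells.

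Transcripts of both ribonucleotide reductase subunits rose and those of the inhibitor Spd1 fell. Of 9 genes of the enzyme and its control, 5 rose (40.3% of all features did), 2 fell and 2 did not pass the test (rises to falls 6 to 1 with library totals and 5 to 4 with quantile normalization). The large subunit gene cdc22 had 1459 and 1477 CPM in hydroxyurea cells, against 494 and 498 CPM in untreated cells (log2 fold change 1.57 ± 0.018, adjusted p = 1.56e-60). The small subunit gene suc22 had 919 and 923 CPM in hydroxyurea cells, against 717 and 717 CPM in untreated cells, a smaller rise of 0.36 ± 0.017. The levels of suc22 and cdc22 in hydroxyurea cells lay above both untreated libraries, with no overlap. The inhibitor spd1 had 65.2 and 62.9 CPM in hydroxyurea cells, against 114 and 114 CPM in untreated cells (-0.83 ± 0.039), while spd2, another small regulator of the enzyme, had 109 and 103 CPM in hydroxyurea cells, against 56.1 and 60.2 CPM in untreated cells (0.87 ± 0.041). Of the ligase that removes Spd1, the substrate receptor cdt2 rose by 0.95 and the adaptor ddb1 by 0.25, while the scaffold cul4 fell, at -0.22. The signalosome subunits csn1 and csn2 did not pass the test, at 0.11 and -0.052. In RNA from whole cultures, fewer cells of a type or stage and less RNA per cell cannot be told apart, here and in all that follows.

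MBF-controlled genes rose as a group: 9 of the 11 tested targets rose, none fell, and their median was 0.82, against 0.023 over all features and a band median of -0.14. It was 1.01 with library totals and 0.82 with quantile normalization. Beyond cdc22, the steepest rise was that of tos4, which encodes a forkhead-associated domain protein of S phase, with 428 and 423 CPM in hydroxyurea cells, against 148 and 153 CPM in untreated cells (1.50 ± 0.026, adjusted p = 2.44e-51). The origin licensing gene cdt1 had 96.0 and 91.3 CPM in hydroxyurea cells, against 53.6 and 54.2 CPM in untreated cells (0.80 ± 0.046), and its partner cdc18, which loads the MCM helicase, had 67.7 and 65.2 CPM in hydroxyurea cells, against 37.3 and 36.8 CPM in untreated cells (0.84 ± 0.053). The S-phase cyclin gene cig2 had 83.5 and 79.5 CPM in hydroxyurea cells, against 37.8 and 37.9 CPM in untreated cells (1.11 ± 0.053), although 77.9% of its span is covered by other features. Each of these genes was higher in both hydroxyurea libraries than in either untreated library. The single-stranded DNA binding gene ssb1 stayed at -0.013, and mrc1, wholly covered by other features, had only 0.280 and 0.373 CPM in hydroxyurea cells, against 0.0776 and 0.280 CPM in untreated cells. The median of the group against untreated cells was 1.06 in MMS cells, 0.29 in phleomycin cells and -0.0083 in camptothecin cells, comparisons that share the untreated libraries.

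The regulators of MBF moved less evenly, with 5 of 7 up and 2 down (5 to 0 with library totals). The repressor yox1, itself a target in the feedback loop that closes MBF genes after S phase, had 91.1 and 97.1 CPM in hydroxyurea cells, against 47.3 and 44.8 CPM in untreated cells (1.03 ± 0.050, adjusted p = 1.14e-27). Its partner repressor nrm1 had 139.8 and 144 CPM in hydroxyurea cells, against 108 and 112 CPM in untreated cells (0.37 ± 0.037). The DNA-binding subunit res1 and the activator rep2 rose by 0.33 and 0.33, the core subunit cdc10 rose by 0.17, and the partner subunit res2 and the meiotic activator rep1 fell, with log2 fold changes of -0.12 and -0.21.

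MBF binds the letters ACGCGT, and the promoters of 5 genes of the MBF lists that rose are shown. These genes were picked for the size of their rise and not for the letters. Their rises were the largest in the lists apart from that of cig2 (1.11), which other features cover for 77.9% of its span. The 150 bases before the annotated start of each gene are given 5′ to 3′ on the gene's strand, from RefSeq's assembly ASM294v3. The build behind the deposited counts is not given in the sources used here, and capitals mark each ACGCGT.
cdc22 (I:4226820-4226969, plus strand): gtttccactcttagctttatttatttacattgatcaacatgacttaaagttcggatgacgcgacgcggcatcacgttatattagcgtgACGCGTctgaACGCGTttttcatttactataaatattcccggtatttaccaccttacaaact
tos4 (I:1922393-1922542, plus strand): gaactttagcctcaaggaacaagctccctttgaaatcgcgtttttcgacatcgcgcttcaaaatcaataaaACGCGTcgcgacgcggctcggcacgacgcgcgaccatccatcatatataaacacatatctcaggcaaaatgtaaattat
yox1 (II:1648082-1648231, plus strand): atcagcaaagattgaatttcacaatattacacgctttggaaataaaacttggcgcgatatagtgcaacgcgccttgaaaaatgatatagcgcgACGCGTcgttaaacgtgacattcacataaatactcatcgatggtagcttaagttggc
cdt2 (I:2035705-2035854, minus strand): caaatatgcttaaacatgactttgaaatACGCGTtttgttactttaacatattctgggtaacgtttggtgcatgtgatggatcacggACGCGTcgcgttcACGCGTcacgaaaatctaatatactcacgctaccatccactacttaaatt
cdc18 (II:2217985-2218134, minus strand): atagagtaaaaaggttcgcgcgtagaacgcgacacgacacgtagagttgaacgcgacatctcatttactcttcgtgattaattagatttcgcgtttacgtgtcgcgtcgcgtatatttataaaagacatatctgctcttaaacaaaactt

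The cdc22 promoter held the letters at 62 and 52 bases before the start, tos4 once at 79, yox1 once at 57, and cdt2 at 122, 63 and 50. The cdc18 window held none in this exact form. Over windows from 250 bases before to 50 after the start, searched on both strands, ACGCGT lay in 150 of 4703 tested protein-coding genes (3.19%) and in 7 of the 11 MBF targets (63.6%). Among the targets the median log2 fold change was 0.82 with the letters and 0.82 without them. Of the 150 genes that carry them anywhere in the window, 64 rose and 57 fell, with a median of 0.0029, beside 1634 that rose and 2148 that fell among all 4703 windows, with a median of -0.062.

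**Figure D3:**
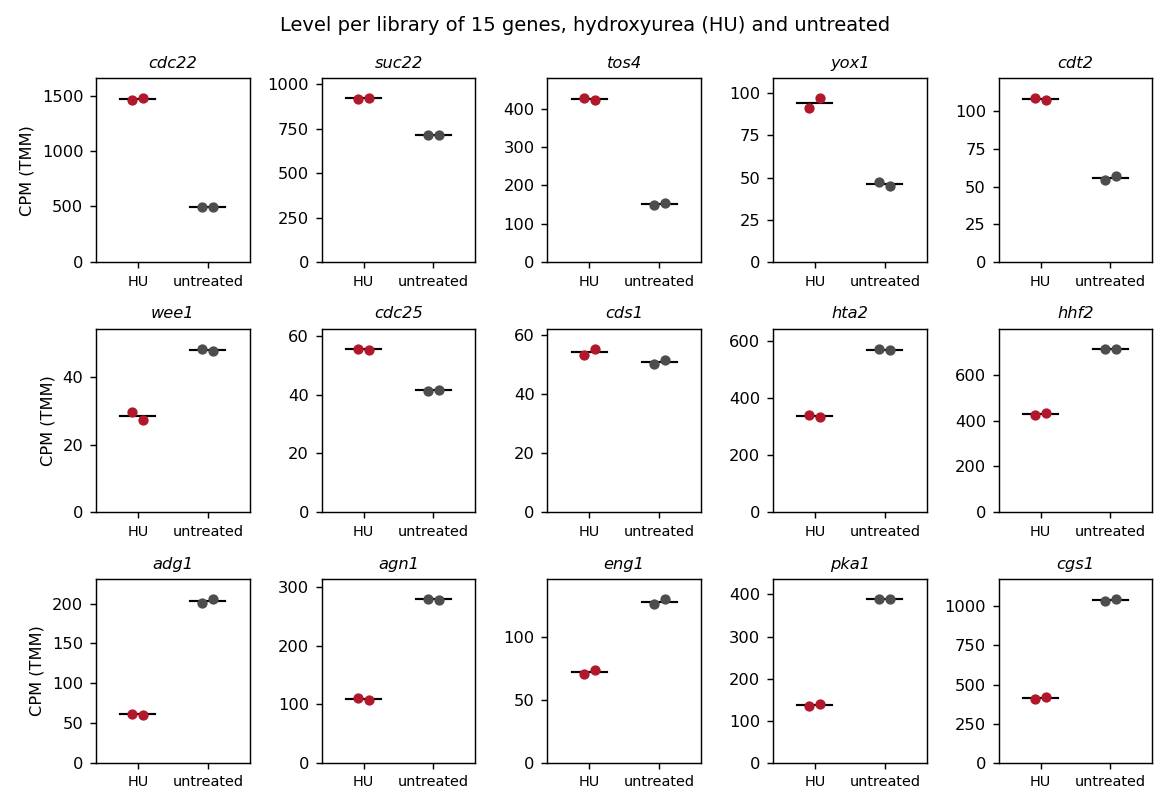
Levels in each library (CPM, axes from 0) of 15 genes named in the text, with hydroxyurea left of untreated in each panel, points for libraries and a bar for their mean. The points of a pair lie close together, and for cdc22 they sit at 1459 and 1477 CPM in hydroxyurea cells, against 494 and 498 CPM in untreated cells.

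The replication machinery, some MBF targets included, showed no common direction with TMM factors. Of 26 tested genes of origin licensing and firing, 9 rose and 8 fell (16 to 4 with library totals, 11 to 10 with quantile normalization). Their median was -0.015, and it changed sign with library totals, upper quartile, quantile, protein-coding TMM and both added scalings. The helicase subunit gene mcm6 averaged 104 ± 5.33 CPM in hydroxyurea cells and 154 ± 1.14 CPM in untreated cells (SD, n = 2 each), a change of -0.57 ± 0.038, the opposite of cdt1 and cdc18, while the origin recognition gene orc4 had 105 and 106 CPM in hydroxyurea cells, against 77.4 and 75.6 CPM in untreated cells (0.46 ± 0.040). Among 30 genes of polymerases and fork factors 11 rose and 12 fell (14 to 3 with library totals, 13 to 12 with quantile normalization), with a median of 0.0074, whose sign changed with DESeq2's size factors, quantile normalization and TMM without ribosomal protein genes. The polymerase alpha gene pol1 rose by 0.61 ± 0.032, the polymerase delta gene cdc6 by 0.68 ± 0.042 and the topoisomerase II gene top2 by 0.44 ± 0.023, whereas the topoisomerase I gene top1 fell, at -0.47.

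Of 15 tested checkpoint genes, 8 rose and 3 fell, with a median of 0.31 (0.11 with quantile normalization, where 7 rose and 3 fell, as against 10 and 0 with library totals). The effector kinase gene cds1, which hydroxyurea activates as a protein, had 53.4 and 55.5 CPM in hydroxyurea cells, against 50.3 and 51.7 CPM in untreated cells. Its change of 0.093 ± 0.050 did not pass the test (adjusted p = 0.0853). The effector kinase of the damage checkpoint, chk1, rose by 0.31 and the sensor kinase gene rad3 fell, at -0.20, though other features cover 57.9% and 66.3% of their span. The mediator mdb1, which binds phosphorylated histone H2A, had 97.1 and 102 CPM in hydroxyurea cells, against 57.5 and 60.0 CPM in untreated cells (0.76 ± 0.043).

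More genes of DNA repair rose than fell, by a margin that depended on the scaling. In homologous recombination 17 of 25 rose and 3 fell (median 0.31, band median 0.19), in the other repair pathways 21 of 37 rose and 5 fell (median 0.21, band median 0.037), and in cohesin and the related SMC5/6 complex 9 of 15 rose and 4 fell. With quantile normalization 9 rose and 7 fell in recombination (median 0.12), 17 and 14 in the other pathways (median 0.10) and 9 and 2 in cohesin and SMC5/6, beside a median of -0.036 for all features. With library totals the splits were 19 to 2, 24 to 2 and 11 to 0. Among the recombination rises, rmi1 and top3 are wholly covered by other features, slx4 for 93.7% of its span and rad52 for 77.1%. Among those of the other pathways, rev1 is covered for 89.4% and tdp1 for 79.3%. Reads of the overlapping features may have been counted for these genes. The recombination-limiting helicase gene fbh1 had 90.8 and 90.9 CPM in hydroxyurea cells, against 61.2 and 66.3 CPM in untreated cells (0.51 ± 0.047). Among the other pathways, mms2, a ubiquitin conjugation factor of DNA damage tolerance, had 59.9 and 60.6 CPM in hydroxyurea cells, against 30.1 and 30.8 CPM in untreated cells (0.98 ± 0.052). The repair gene rhp23 had 115 and 116 CPM in hydroxyurea cells, against 169.7 and 169.7 CPM in untreated cells (-0.55 ± 0.033). The groups did not overlap in either gene, and mms2 was higher while rhp23 was lower in hydroxyurea cells.

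Genes that time mitosis moved in both directions. Of 18 tested genes of mitotic entry, 7 rose and 10 fell, with a median of -0.23 that changed sign with act1 held equal. Wee1 and Mik1 are the kinases that place the inhibitory phosphate on the cyclin-dependent kinase Cdc2, and Cdc25 is the phosphatase that removes it. The MBF target mik1 had 80.7 and 82.4 CPM in hydroxyurea cells, against 46.1 and 47.8 CPM in untreated cells (0.80 ± 0.050), while wee1 had 29.6 and 27.2 CPM in hydroxyurea cells, against 48.5 and 47.7 CPM in untreated cells (-0.76 ± 0.062, adjusted p = 2.6e-17) and cdc25 had 55.6 and 55.1 CPM in hydroxyurea cells, against 41.3 and 41.5 CPM in untreated cells (0.42 ± 0.054). Thus the transcripts of both kinases and of the phosphatase changed beyond the spread of the libraries, mik1 and cdc25 upward and wee1 downward. The spindle pole gene cut12 rose by 0.83 ± 0.041 and the anaphase-promoting complex activator srw1 by 0.78 ± 0.056. Transcripts of Cdc2 itself and of its mitotic cyclin cdc13 fell, with log2 fold changes of -0.38 and -0.37. Of 25 genes of mitosis and cytokinesis 14 rose and 7 fell (median 0.13), and the split was 18 to 3 with library totals and 16 to 4 with quantile normalization. The Aurora kinase gene ark1 rose by 0.85 ± 0.067 and its passenger partner bir1 by 0.63 ± 0.045. The contractile ring gene imp2 rose by 0.66 ± 0.044 and the division-plane gene mid1 fell, at -0.41.

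Cell separation genes, which are switched on at the end of the cycle to cut the septum, fell: 6 of the 7 tested fell (0 rises to 6 falls with quantile normalization) and the group's median was -1.02, with a band median of -0.069, and -0.84 under library totals and -0.84 under quantile normalization. The surface glycoprotein gene adg1 had 60.9 and 60.5 CPM in hydroxyurea cells, against 200.3 and 206 CPM in untreated cells (-1.74 ± 0.042, adjusted p = 1.77e-43). The septum-degrading alpha-glucanase gene agn1 had 111 and 108 CPM in hydroxyurea cells, against 279.8 and 279 CPM in untreated cells (-1.36 ± 0.035), and adg3 had 124 and 129 CPM in hydroxyurea cells, against 273 and 283 CPM in untreated cells (-1.14 ± 0.033). The beta-glucanase gene eng1 had 70.7 and 73.8 CPM in hydroxyurea cells, against 126 and 129.9 CPM in untreated cells (-0.82 ± 0.045). In all 4 genes the hydroxyurea libraries lay below the untreated ones.

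Hydroxyurea cells did not have the lowest levels of these genes in the series. All 7 tested cell separation genes were higher in hydroxyurea cells than in the mean of the other 3 agents, where 36.8% of all features were higher, and the median log2 difference was 1.13. The distance was to MMS and phleomycin cells: the group's median against untreated cells was -1.02 with hydroxyurea, -0.92 with camptothecin, -2.23 with MMS and -2.24 with phleomycin. Set against camptothecin cells alone in the same edgeR model, adg1, agn1, adg3 and cfh4 were lower in hydroxyurea cells, with log2 differences of -0.24, -0.25, -0.22 and -0.29 and adjusted p at or under 2.18e-06. The adg1 level was 60.9 and 60.5 CPM in hydroxyurea cells, 72.0 and 71.7 CPM in camptothecin cells, 9.39 and 9.54 CPM in MMS cells and 10.96 and 10.1 CPM in phleomycin cells, against 200.3 and 206 CPM in untreated cells. Hydroxyurea and camptothecin cells thus lay between untreated cells and MMS and phleomycin cells. For adg2 the levels were 96.0 and 94.8 CPM in hydroxyurea cells, 79.5 and 78.2 CPM in camptothecin cells, 29.0 and 30.1 CPM in MMS cells and 29.6 and 27.0 CPM in phleomycin cells, against 139 and 138 CPM in untreated cells.

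Genes of core histones and their variants, which for the core types are transcribed in S phase and kept in step with DNA synthesis, fell in 6 of 9 tested members and rose in 3. The median was -0.59, beside a band median of -0.26 (-0.41 with library totals and -0.41 with quantile normalization). The H2A gene hta2 had 339 and 334 CPM in hydroxyurea cells, against 572 and 565 CPM in untreated cells (-0.76 ± 0.021), and the H4 genes hhf1 and hhf2 had 777 and 779 and 424 and 432 CPM in hydroxyurea cells, against 1309.97 and 1308 and 714 and 713 CPM in untreated cells. The H3 gene hht1 had 691 and 693 CPM in hydroxyurea cells, against 1020.2 and 1034 CPM in untreated cells (-0.57 ± 0.018). By contrast the H2B gene htb1 had 1396 and 1405 CPM in hydroxyurea cells, against 1036 and 1034 CPM in untreated cells (0.44 ± 0.016) and the centromeric H3 gene cnp1 rose by 0.42 ± 0.062, so transcripts of the 4 core histones did not move together. Histone genes of 1 type are alike in sequence, and reads could be split between them. Among 11 genes of histone supply 3 rose and 5 fell (6 to 5 with library totals). There the chaperone nap1 had 442 and 449 CPM in hydroxyurea cells, against 312 and 313 CPM in untreated cells (0.51 ± 0.021) and asf1 fell, at -0.60; the group's median of -0.078 changed sign with library totals, upper quartile, protein-coding TMM and both added scalings. For the histone list as a whole the median against untreated cells was -0.31 in camptothecin cells, -0.013 in MMS cells and -1.29 in phleomycin cells.

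The hta2 promoter is shown for AACCCT, the repeated element of fission yeast histone promoters, in capitals.
hta2 (I:4053319-4053468, minus strand): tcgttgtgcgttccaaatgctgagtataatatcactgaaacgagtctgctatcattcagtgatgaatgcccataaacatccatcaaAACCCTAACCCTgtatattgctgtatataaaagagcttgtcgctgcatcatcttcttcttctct

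The element stood there as a tandem pair, 64 and 58 bases before the start. It lay in 7 of the 9 tested histone windows (77.8%) and in 9.65% of all windows.

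Genes that make nucleotides did not follow the reductase upward. All 7 tested genes of pyrimidine and deoxynucleotide precursor synthesis fell, with a median of -0.35 and a band median of -0.23 (-0.17 with library totals and -0.20 with quantile normalization, where 6 fell and 1 rose). The dihydroorotate dehydrogenase gene ura3 had 351 and 357 CPM in hydroxyurea cells, against 489.9 and 486 CPM in untreated cells (-0.46 ± 0.022). For ura1, of the first steps of the pathway, the levels were 1924 and 1931 CPM in hydroxyurea cells, against 2459 and 2459 CPM in untreated cells; its log2 fold change of -0.35 ± 0.016 changed sign to 0.10 with quantile normalization. Of 12 purine genes 4 rose and 8 fell (median -0.20, of the opposite sign with act1 held equal), but 5 rose and 5 fell with library totals and likewise with quantile normalization. The GMP synthetase gene gua1 had 1282 and 1294 CPM in hydroxyurea cells, against 758 and 759.6 CPM in untreated cells (0.76 ± 0.017), ade10 rose by 0.63 ± 0.019, and ade3 and ade4 fell, at -0.47 and -0.43. The adenine salvage gene apt1 had 145 and 145 CPM in hydroxyurea cells, against 327 and 329.6 CPM in untreated cells (-1.18 ± 0.030).

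Ribosomal protein genes fell: 97 of 119 tested members fell and 14 rose, with a median of -0.44 and a band median of -0.26. The median lay below 0 under all scalings run, and its size varied: 76 fell and 23 rose with library totals (median -0.26) and 72 fell and 36 rose with quantile normalization (median -0.19). The sign was not the same in all 7 scalings for 23 of the called members. Among those that fell most, rps2402 of the small subunit had 1549.7 and 1549 CPM in hydroxyurea cells, against 3261 and 3260.4 CPM in untreated cells (-1.07 ± 0.015), rpp102 of the acidic stalk had 918 and 931 CPM in hydroxyurea cells, against 2044 and 2089 CPM in untreated cells (-1.16 ± 0.017) and rpl702 of the large subunit had 903 and 900.4 CPM in hydroxyurea cells, against 1872 and 1920.2 CPM in untreated cells (-1.07 ± 0.017). Many ribosomal protein genes are near-identical pairs, so reads of 1 copy may have been given to the other. The median of the list was -0.041 in camptothecin cells, -0.71 in MMS cells and -0.32 in phleomycin cells, each against the same untreated libraries.

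Most fission yeast ribosomal protein promoters carry the HomolD box, and 2 of the members that fell most are shown with it, CAGTCACA, in capitals. The rpp102 sequence is shorter, since the bases before it lie in a neighbouring transcript.
rpp102 (II:4009397-4009481, minus strand): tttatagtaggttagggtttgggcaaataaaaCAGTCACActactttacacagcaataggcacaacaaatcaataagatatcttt
rps2402 (II:2180753-2180902, plus strand): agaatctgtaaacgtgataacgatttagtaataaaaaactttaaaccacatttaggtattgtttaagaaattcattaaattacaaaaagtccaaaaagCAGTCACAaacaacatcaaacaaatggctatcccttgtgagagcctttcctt

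The box lay 53 bases before the start in rpp102 and 52 in rps2402. It was found in 79 of the 119 ribosomal protein windows (66.4%), against 125 of all 4703 (2.66%). Members with it had a median of -0.47 and members without it -0.34. Of all 125 genes with the box 92 fell and 24 rose, a set that is mostly ribosomal protein genes.

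The rest of the translation machinery changed less. Of 73 ribosome assembly genes 24 rose and 39 fell (35 to 24 with library totals, 29 to 29 with quantile normalization), with a median of -0.14, which turned to 0.048 with library totals and changed sign also with upper quartile and both added scalings. The snoRNP genes nop58 and nhp2 fell, with log2 fold changes of -0.62 and -0.58, as did the RNA polymerase I subunit gene nuc1 (-0.60) and the small-subunit processome gene utp10 (-0.57). Against the mean of the other 3 agents, in contrast, 55 of the 73 were higher and 5 lower in hydroxyurea cells (median difference 0.19), where 36.8% of all features were higher. The group's median against untreated cells was -0.136 with hydroxyurea, -0.162 with camptothecin, -0.178 with MMS and -0.385 with phleomycin, so the largest distance was to phleomycin cells. Among 23 translation factors 7 rose and 12 fell (12 to 10 with library totals, 12 to 9 with quantile normalization; median -0.11, of the opposite sign in library totals, upper quartile, quantile and both added scalings). The initiation factor gene tif11 had 620.02 and 608 CPM in hydroxyurea cells, against 1177 and 1185 CPM in untreated cells (-0.94 ± 0.018).

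**Figure D4:**
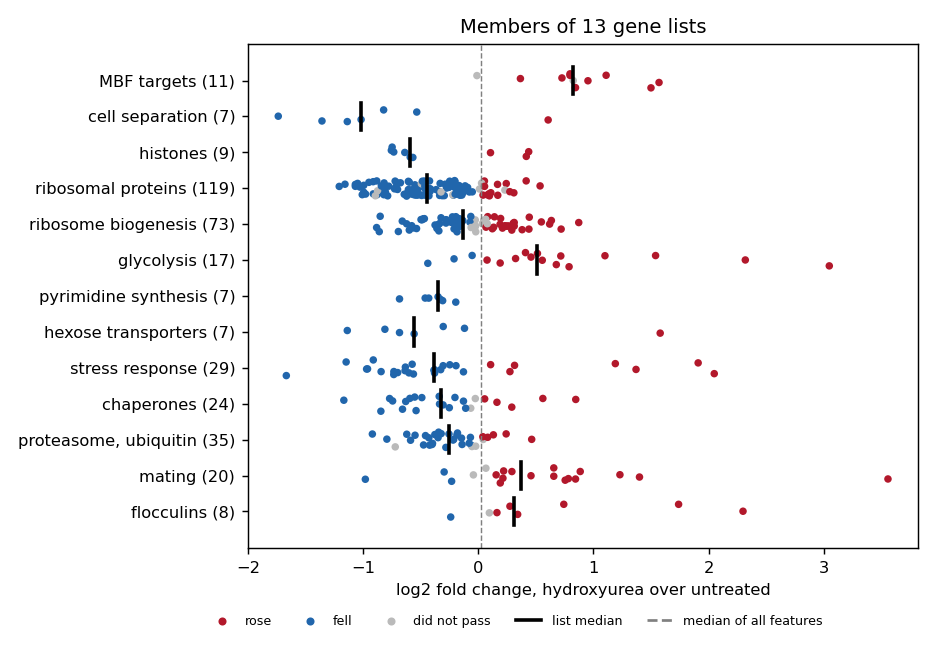
Log2 fold changes of hydroxyurea over untreated for the tested members of 13 gene lists, 1 point a gene, with the median of each list. Colours mark calls. MBF targets have a median of 0.82, cell separation genes of -1.02 and ribosomal protein genes of -0.44, against 0.023 for all features.

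Carbon metabolism changed in parts that went opposite ways. Glycolytic genes rose in 14 of 17 tested members and fell in 3 (15 to 1 with library totals, 14 to 1 with quantile normalization), with a median of 0.51 and a band median of -0.26, and took 7.18% and 7.38% of all counts in hydroxyurea cells, against 4.47% and 4.58% in untreated cells. The dehydrogenase gene tdh1 had 23117 and 23972 CPM in hydroxyurea cells, against 14457 and 14996 CPM in untreated cells (0.68 ± 0.017), eno101 had 11418 and 12082 CPM in hydroxyurea cells, against 6632 and 6977 CPM in untreated cells (0.79 ± 0.020) and the pyruvate kinase gene pyk1 had 3529 and 3614 CPM in hydroxyurea cells, against 2152 and 2198 CPM in untreated cells (0.72 ± 0.016). The triose phosphate isomerase gene tpi1 went the other way by -0.44 ± 0.015. Hexose transporter genes fell in 6 of 7 tested members (5 with library totals and 4 with quantile normalization; median -0.56). The main high-affinity glucose transporter ght5 had 484 and 493 CPM in hydroxyurea cells, against 1083 and 1066 CPM in untreated cells (-1.14 ± 0.019, adjusted p = 2.09e-52), and ght2 and ght8 fell, at -0.69 and -0.31. The exception was ght7, which rose by 1.58 at under 10 CPM, and ght1 was at -0.12, of the opposite sign (0.063) with library totals.

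Glucose-repressed genes split 8 up and 7 down of 15 (8 to 5 with library totals, 7 to 4 with quantile normalization). Genes of the citrate cycle and the nuclear-encoded respiratory chain split 14 up and 21 down of 41 (18 to 14 with library totals, 17 to 18 with quantile normalization), with a median of -0.13 that turned to 0.051 with library totals and changed sign also with upper quartile and both added scalings. The ATP synthase gene atp2 had 1397 and 1401 CPM in hydroxyurea cells, against 2402 and 2482 CPM in untreated cells (-0.80 ± 0.017) and the citrate synthase gene cit1 fell, at -0.68, while the isocitrate dehydrogenase gene idp1 rose by 0.63 ± 0.018 and the cytochrome oxidase gene cox9 had 119 and 125 CPM in hydroxyurea cells, against 58.6 and 61.3 CPM in untreated cells (1.02 ± 0.038). Against the other 3 agents 33 of the 41 were lower in hydroxyurea cells and 3 higher (26 and 7 with library totals, 29 and 5 with quantile normalization; median difference -0.24), where 34.1% of all features were lower. Features of the mitochondrial genome fell in 6 of 9 and rose in none (1 rise to 8 falls with quantile normalization; median -0.39), with 2.59% and 2.54% of counts in hydroxyurea cells, against 3.16% and 3.11% in untreated cells.

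The general stress response did not rise as a group. Of 29 tested genes under the stress kinase Sty1 and its factor Atf1, 7 rose and 22 fell (median -0.39, band median -0.23, and -0.20 with library totals). The small heat shock gene hsp9 had 1774 and 1799.7 CPM in hydroxyurea cells, against 3454 and 3520.2 CPM in untreated cells (-0.96 ± 0.016), and the trehalose synthase gene tps1 had 606 and 609.9 CPM in hydroxyurea cells, against 1188 and 1198 CPM in untreated cells (-0.97 ± 0.017). Against this, the glutathione S-transferase gene gst2 had 3203 and 3237 CPM in hydroxyurea cells, against 771 and 781 CPM in untreated cells (2.05 ± 0.016), and the metallothionein gene zym1 had 281 and 277 CPM in hydroxyurea cells, against 109 and 107 CPM in untreated cells (1.37 ± 0.025). The pairs of libraries were far apart in all 4 genes, hsp9 and tps1 lower and gst2 and zym1 higher with hydroxyurea. In the same list the median against untreated cells was -0.12 in camptothecin cells, 0.26 in MMS cells and -0.46 in phleomycin cells.

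Oxidative stress genes under the factor Pap1 split 8 up and 4 down of 15 (11 to 3 with library totals and with quantile normalization). The nitric oxide dioxygenase gene yhb1 had 463 and 479 CPM in hydroxyurea cells, against 184 and 186 CPM in untreated cells (1.35 ± 0.021) and the peroxiredoxin gene tpx1 had 1715 and 1724 CPM in hydroxyurea cells, against 948 and 957 CPM in untreated cells (0.85 ± 0.016). Sulfiredoxin, the enzyme that repairs over-oxidised peroxiredoxin, is encoded by srx1, which went down, with 56.3 and 57.5 CPM in hydroxyurea cells, against 127 and 126 CPM in untreated cells (-1.15 ± 0.033). Chaperone genes fell in 17 of 24 and rose in 5 (9 to 14 with library totals, 7 to 13 with quantile normalization; median -0.32, band median -0.26). The Hsp110 gene pss1 had 1262 and 1268 CPM in hydroxyurea cells, against 2836 and 2846 CPM in untreated cells (-1.17 ± 0.016) and the Hsp90 activator aha1 had 304 and 314 CPM in hydroxyurea cells, against 563 and 551 CPM in untreated cells (-0.85 ± 0.020). Genes of the proteasome and ubiquitin fell in 26 of 35 and rose in 5 (10 rises to 17 falls with library totals, 11 to 18 with quantile normalization), with a median of -0.26 that equalled the band median, was -0.072 with library totals and lay above 0 with act1 held equal. The ubiquitin gene ubi3, fused to a ribosomal protein, had 5025 and 5162 CPM in hydroxyurea cells, against 9544 and 9763 CPM in untreated cells (-0.92 ± 0.016), whereas cdc48, the ATPase that pulls ubiquitinated proteins apart, had 1110.3 and 1107 CPM in hydroxyurea cells, against 801 and 807 CPM in untreated cells (0.46 ± 0.016).

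Nutrient genes gave no common direction but several large single changes. In iron uptake 8 rose and 6 fell of 16: the siderophore transporter gene str1 had 115 and 117 CPM in hydroxyurea cells, against 356 and 358 CPM in untreated cells (-1.63 ± 0.028), while str3, a haem transporter, had 33.7 and 32.0 CPM in hydroxyurea cells, against 11.4 and 12.5 CPM in untreated cells (1.46 ± 0.057). In copper and zinc handling 4 rose and 5 fell of 10, and the median of -0.13 changed sign with library totals, upper quartile and both added scalings. There the copper transporter gene ctr4 had 324 and 332 CPM in hydroxyurea cells, against 142 and 151 CPM in untreated cells (1.16 ± 0.029, adjusted p = 9e-43), whereas the superoxide dismutase gene sod1 and the zinc transporter gene zrt1 fell, at -0.58 and -0.47. In phosphate handling the polyphosphate synthase subunit gene vtc4 had 139 and 146 CPM in hydroxyurea cells, against 334 and 319.6 CPM in untreated cells (-1.20 ± 0.030); the acid phosphatase and transporter genes pho1 and pho84 rose by 1.32 and 1.87, both covered by other features. In nitrogen uptake 7 rose and 7 fell of 15 (9 to 3 with library totals, 5 to 6 with quantile normalization), and the median of 0.019 changed sign with DESeq2's size factors. There the oligopeptide transporter gene isp4 was up at 66.6 and 70.3 CPM in hydroxyurea cells, against 22.6 and 24.4 CPM in untreated cells (1.54 ± 0.058) and the amino acid permease gene aat1 was down at 551 and 550.5 CPM in hydroxyurea cells, against 1104 and 1107 CPM in untreated cells (-1.01 ± 0.018). Of 53 genes of amino acid and sulphur metabolism 19 rose and 30 fell, and of 20 genes of sterols and lipids 5 rose and 13 fell; the splits were 24 to 22 and 11 to 6 with library totals and 23 to 24 and 14 to 3 with quantile normalization. Both medians, -0.17 and -0.12, were of the opposite sign with library totals and both added scalings, the second also with upper quartile and quantile normalization. The sulphate transporter gene sul2 had 116 and 120.4 CPM in hydroxyurea cells, against 344 and 355 CPM in untreated cells (-1.56 ± 0.032).

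Genes of mating and meiosis are normally low in growing cells, and whether more of them rose than fell depended on the scaling for meiosis. In the mating list 15 of 20 rose and 3 fell (median 0.37, 0.15 with quantile normalization, where 8 rose and 3 fell), and in the meiosis list 8 of 15 rose and 3 fell (median 0.60, 0.30 with quantile normalization, where 7 rose and 7 fell). The linear element gene rec10, which organises meiotic chromosomes, had 82.6 and 90.0 CPM in hydroxyurea cells, against 19.6 and 17.3 CPM in untreated cells (2.23 ± 0.057). The M-factor pheromone genes are near-copies in product and did not move together: mfm1 had 2.78 and 3.35 CPM in hydroxyurea cells, against 0.207 and 0.303 CPM in untreated cells and mfm2 fell, at -0.98. Of the 20 and 15 genes, 10 and 10 lie in the lowest 3 level bands, whose medians lay above 0 with TMM factors, and the median of the members' band medians was 0.28 for mating and 0.36 for meiosis. Among 12 telomere genes 7 rose and 2 fell (10 to 1 with library totals); the end-binding gene pot1 had 109 and 109.8 CPM in hydroxyurea cells, against 38.5 and 40.2 CPM in untreated cells (1.47 ± 0.044) and its partner tpz1 rose by 0.62 ± 0.048. Of 21 genes of heterochromatin and RNA interference 12 rose and 5 fell (15 to 2 with library totals), with chp2, a heterochromatin protein, at 49.0 and 44.9 CPM in hydroxyurea cells, against 27.8 and 27.5 CPM in untreated cells (0.76 ± 0.060). Nuclear RNA surveillance fell in 9 of 16 and rose in 3 (6 rises to 6 falls with library totals, 5 to 8 with quantile normalization; median -0.19, of the opposite sign with act1 held equal): the exosome helicase gene mtr4 and the exosome nuclease gene dis3 fell, at -0.60 and -0.59, while rrp6 rose by 0.39 ± 0.026. Of 8 flocculins, the adhesion proteins of the cell surface, 6 rose and 1 fell (7 to 0 with library totals, 4 to 0 with quantile normalization), led by pfl9 with 15.3 and 18.1 CPM in hydroxyurea cells, against 3.47 and 3.31 CPM in untreated cells (2.30 ± 0.15).

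The protein-coding genes with the largest rises, among those with a symbol, at least 10 CPM in the higher group, no near-identical copy and under 75% of the span covered by other features, were nrg1 and mel1. The nrg1 level was 66.1 and 65.4 CPM in hydroxyurea cells, against 5.41 and 5.01 CPM in untreated cells, a 12.6-fold difference (3.66 ± 0.073). The alpha-galactosidase gene mel1 had 14.4 and 12.7 CPM in hydroxyurea cells, against 1.04 and 1.26 CPM in untreated cells, an 11.7-fold difference. The third, the glycolytic dehydrogenase gene gpd3, had 805 and 838 CPM in hydroxyurea cells, against 97.6 and 100.29 CPM in untreated cells (3.05 ± 0.023). Its relative tdh1 was far more abundant in both groups. Next came mug146 with 30.3 and 27.6 CPM in hydroxyurea cells, against 3.96 and 4.29 CPM in untreated cells and osr1 with 192 and 191 CPM in hydroxyurea cells, against 28.2 and 29.0 CPM in untreated cells. The sugar alcohol dehydrogenase family gene tms1 had 136 and 139 CPM in hydroxyurea cells, against 37.5 and 35.6 CPM in untreated cells (1.91 ± 0.039) and the alcohol dehydrogenase gene adh8 had 130.2 and 134 CPM in hydroxyurea cells, against 36.7 and 35.6 CPM in untreated cells (1.87 ± 0.035). Of the 15 genes in this set, gst2 was the most abundant. Groups that do not overlap were a condition for entry to this set, and to that of the genes that fell most.

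At the other end stood invertase, inv1, with 220.4 and 228 CPM in hydroxyurea cells, against 751 and 771 CPM in untreated cells (-1.76 ± 0.023), and adg1. The WW domain gene wwm3 had 550.00 and 557 CPM in hydroxyurea cells, against 1774 and 1834 CPM in untreated cells (-1.70 ± 0.018). Among those that fell most were also both subunits of cAMP-dependent protein kinase, which signals glucose in this yeast. The catalytic subunit gene pka1 had 136 and 139.8 CPM in hydroxyurea cells, against 389 and 388 CPM in untreated cells (-1.50 ± 0.027, adjusted p = 3.08e-50), and the regulatory subunit gene cgs1 had 411 and 422 CPM in hydroxyurea cells, against 1032 and 1047 CPM in untreated cells (-1.32 ± 0.019, adjusted p = 5.28e-56). Both genes fell by a similar fold. The peroxiredoxin-family gene pmp20 had 1312 and 1336 CPM in hydroxyurea cells, against 2976 and 3039 CPM in untreated cells (-1.18 ± 0.017) and the alkaline phosphatase gene pho8 had 147 and 150.4 CPM in hydroxyurea cells, against 348 and 337 CPM in untreated cells (-1.21 ± 0.028).

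Non-coding features rose more often than they fell, by a margin that depended on the scaling. Of 1016 tested, 676 rose and 68 fell, with a median of 0.89 (band median 0.73), against -0.063 for protein-coding genes, a median whose sign changed with library totals, upper quartile, protein-coding TMM and both added scalings. With quantile normalization 326 rose and 207 fell and the median was 0.15, while with library totals 753 rose and 42 fell and it was 1.07. Under all 7 scalings 324 rose and 42 fell. Of the 1016, 889 lay in the lowest 3 level bands. They were 371 of 574, 319 of 573 and 199 of 573 features there, so their band median rests largely on themselves. In these bands the TMM medians were 1.23, 0.95 and 0.73 for non-coding features and 0.82, 0.33 and 0.24 for protein-coding genes. With quantile normalization they were 0.034, 0.15 and 0.215 for non-coding features and -0.34, -0.37 and -0.19 for protein-coding genes. Non-coding features took 6.87% and 6.92% of all counts in hydroxyurea cells, against 6.18% and 6.23% in untreated cells.

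Among the strongest rises under the same limits on level, copies and overlap, SPNCRNA.472 had 33.5 and 34.0 CPM in hydroxyurea cells, against 4.55 and 3.80 CPM in untreated cells (3.02 ± 0.092), SPNCRNA.1617 had 17.5 and 17.7 CPM in hydroxyurea cells, against 1.86 and 2.05 CPM in untreated cells (3.16 ± 0.14) and SPNCRNA.987 had 9.84 and 12.3 CPM in hydroxyurea cells, against 1.09 and 0.653 CPM in untreated cells (3.68 ± 0.21). These features have no described function in the files. SPNCRNA.1153, expressed at a higher level, had 306 and 319 CPM in hydroxyurea cells, against 67.6 and 70.8 CPM in untreated cells (2.18 ± 0.028). Of 56 non-coding features with a gene symbol 33 rose and 10 fell (24 to 15 with quantile normalization), with a median of 0.70. Telomerase RNA, ter1, had 361 and 360.2 CPM in hydroxyurea cells, against 217 and 216 CPM in untreated cells (0.73 ± 0.022), and the meiotic transcript meu19 had 26.8 and 23.9 CPM in hydroxyurea cells, against 3.73 and 3.68 CPM in untreated cells (2.77 ± 0.12). Not all went up, since RNase P RNA, rrk1, had 6731 and 7029 CPM in hydroxyurea cells, against 10114 and 10423 CPM in untreated cells (-0.58 ± 0.020), and SPNCRNA.703 and SPNCRNA.240 fell, with log2 fold changes of -1.01 and -0.78. The most abundant, SPNCRNA.1095, which a near-identical sequence elsewhere matches, had 22577 and 22793 CPM in hydroxyurea cells, against 22946 and 23186 CPM in untreated cells and did not pass the test (-0.024 ± 0.013, adjusted p = 0.0819). Features first numbered in the annotation, below SPNCRNA.600, had a median of 1.15 and those numbered later one of 0.86. Their band medians, which rest in part on these same features, were 1.09 and 0.73, and with quantile normalization their medians were 0.22 and 0.13. Strand use in counting is not given in the sources used here, so reads of a non-coding feature and of a gene opposite it may have been mixed.

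The 3 other agents were given on the same schedule as hydroxyurea, so setting hydroxyurea cells against their mean leaves the change of medium and the time equal, as far as the labels state. In that comparison, which shares the hydroxyurea libraries with the one above, 4068 of 5734 features passed the test (70.9%), of which 2111 were higher (36.8%) and 1957 lower (34.1%) in hydroxyurea cells. At 2-fold or more 140 were higher and 76 lower, a balance that turned to 97 and 101 with quantile normalization and was 199 and 45 with library totals and 356 and 29 with act1 held equal. Scaling moved this balance too: 3055 were higher and 1156 lower with library totals, 2003 and 2060 with DESeq2's size factors, and 1992 and 1914 with quantile normalization.

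Against the mean of the other agents MBF targets stood higher with hydroxyurea and proteasome genes lower. Of 11 MBF targets 8 were higher and 2 lower (median difference 0.64), although the group's median against untreated cells was higher in MMS cells, as given above. The cdc22 level was 1459 and 1477 CPM in hydroxyurea cells, 509 and 528 CPM in camptothecin cells, 1231 and 1261 CPM in MMS cells and 725 and 729 CPM in phleomycin cells, against 494 and 498 CPM in untreated cells. Hydroxyurea cells were the highest, MMS cells came next, and camptothecin cells lay just above untreated ones. All 35 tested proteasome and ubiquitin genes were lower with hydroxyurea than with the mean of the others (median difference -0.42), and 31 of them were lower with library totals and with quantile normalization. Chaperone genes were lower in 21 of 24 and higher in 2 (median difference -0.23), 16 and 5 with library totals and 15 and 5 with quantile normalization. Their median against untreated cells was -0.32 both with hydroxyurea and with phleomycin, -0.094 with camptothecin and -0.10 with MMS. Stress genes under Sty1 were lower in 19 of 29 and higher in 5, but 16 were lower and 11 higher with library totals, and 17 lower and 6 higher with quantile normalization. Of 8 flocculins 7 were higher and none lower (7 and 1 with quantile normalization; median difference 0.75). Their median against untreated cells was much the same with phleomycin (0.30) as with hydroxyurea (0.31). It was lower with camptothecin (-0.40) and MMS (-0.51).

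Among the genes farthest above the other agents were pfl9, ctr4 and exg1. The flocculin gene pfl9 had 15.3 and 18.1 CPM in hydroxyurea cells, 3.69 and 3.73 CPM in camptothecin cells, 1.53 and 2.44 CPM in MMS cells and 11.8 and 13.3 CPM in phleomycin cells, against 3.47 and 3.31 CPM in untreated cells. For ctr4 the levels were 324 and 332 CPM in hydroxyurea cells, 294 and 299.9 CPM in camptothecin cells, 124 and 123 CPM in MMS cells and 35.3 and 37.5 CPM in phleomycin cells, against 142 and 151 CPM in untreated cells. Its partner in the copper transporter, ctr5, had 248 and 243, 286 and 284, 90.2 and 90.0 and 36.7 and 36.0 CPM in the same order of agents, against 187 and 183 CPM in untreated cells. Both transporter genes were high with hydroxyurea and camptothecin, and lower than in untreated cells with MMS and phleomycin. The secreted glucanase gene exg1 had 425 and 421 CPM in hydroxyurea cells, while its libraries with the other agents lay between 140 and 221 CPM, against 383 and 383 CPM in untreated cells. Here hydroxyurea cells differed little from untreated cells (0.14 ± 0.023), and the other agents lay below both.

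At the other end were genes whose level was lower with hydroxyurea than in any library of the other agents. The cmt2 level was 124 and 119 CPM in hydroxyurea cells, 2725 and 2713 CPM in camptothecin cells, 553 and 539.6 CPM in MMS cells and 195 and 191 CPM in phleomycin cells, against 109 and 108 CPM in untreated cells. Its log2 difference was -2.44 ± 0.019 from the mean of the other agents and 0.16 ± 0.025 from untreated cells. For cmt1 the levels were 437 and 438 CPM in hydroxyurea cells, 2247 and 2263 CPM in camptothecin cells, 1355 and 1369 CPM in MMS cells and 786 and 787 CPM in phleomycin cells, against 277 and 284 CPM in untreated cells. The sulfiredoxin gene srx1 had 56.3 and 57.5 CPM in hydroxyurea cells, 78.9 and 75.7 CPM in camptothecin cells, 645 and 624 CPM in MMS cells and 77.9 and 78.4 CPM in phleomycin cells, against 127 and 126 CPM in untreated cells. Its difference from the mean of the other agents came mostly from MMS cells. The heat shock gene hsp9 was lower in hydroxyurea cells, at 1774 and 1799.7 CPM, than in MMS cells, at 6162 and 6241 CPM, against 3454 and 3520.2 CPM in untreated cells.

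**Figure D5:**
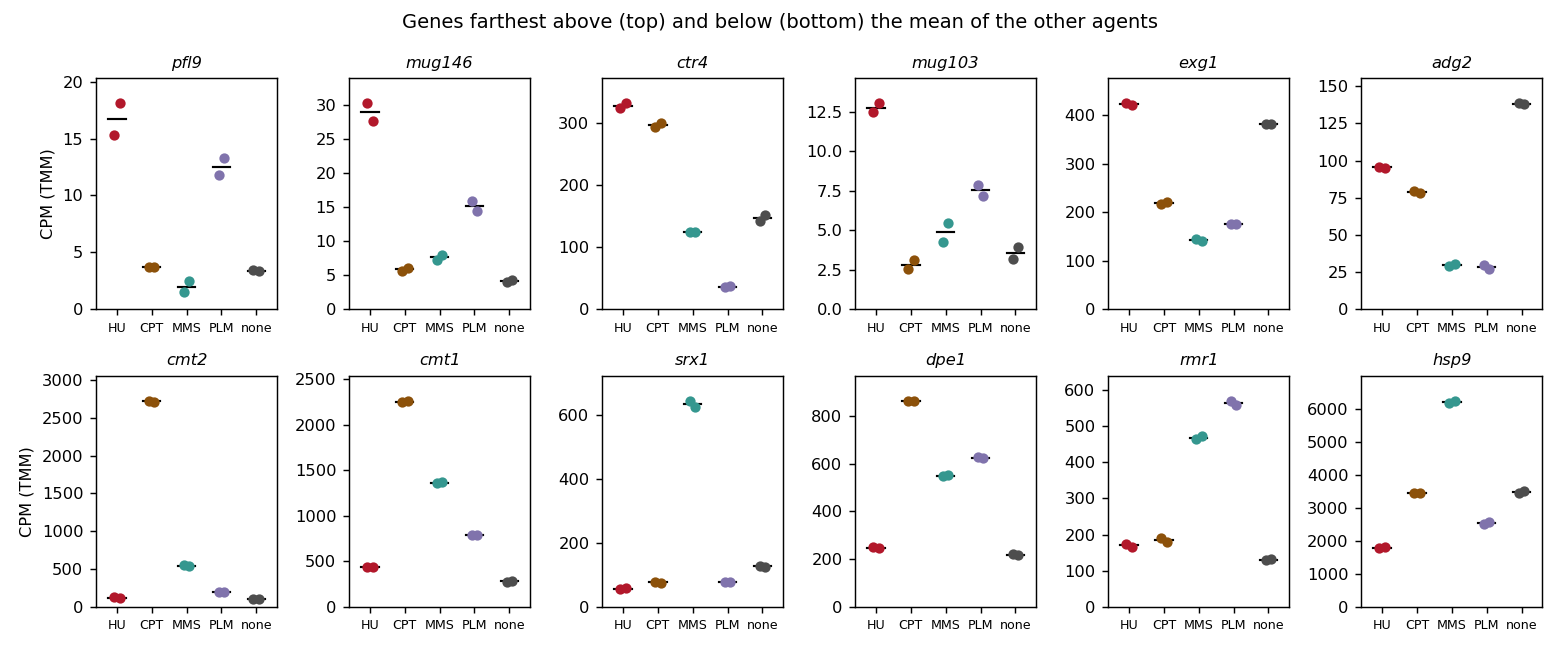
Levels in each library (CPM, axes from 0) of the 6 genes farthest above and the 6 farthest below the mean of the other agents, with hydroxyurea (HU), camptothecin (CPT), MMS, phleomycin (PLM) and untreated cells (none) from left to right. Points are libraries and bars their means, and cmt2 stands at 124 and 119 CPM with hydroxyurea, below each library of the other agents.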

How the data were processed

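The authors deposited a table of raw read counts for 6661 features in 10 RNA-seq libraries. Per the submitters' processing notes HISAT2 and StringTie were used. Neither the build nor the annotation, counter or strand setting is given in the sources used here. Feature names, overlaps and sequences come from RefSeq's annotation of assembly ASM294v3, in which 6540 features matched by locus tag and 11 by synonym, and 110 did not match. Of the table, 142 features have a near-identical copy (95% identity over 50% of the length), and 1577 are covered by other features for 75% or more of their span.

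The deposited counts were tested with edgeR 4.0.16 (R 4.3.3): filterByExpr, which kept 5734 features, TMM factors (1.087 and 1.078 for hydroxyurea, 0.957 and 0.950 for untreated libraries), and the quasi-likelihood test in 1 model of all 5 groups, with Benjamini-Hochberg adjustment over all features tested. Each standard error is the size of the log2 fold change over the root of its F statistic. Quantile-normalized log2 CPM were tested with limma 3.58.1, and DESeq2 1.42.0 was an alternative. The scripts were tested on simulated data. Hydroxyurea was set against the mean of the other 3 agents in the same model.

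Replicate numbers did not pair the libraries: the deviations of same-numbered libraries from their group means correlated between -0.0527 and 0.0370. Levels are counts per 1000000 counts of the TMM-scaled library, and the alternatives tried were other scalings, DESeq2, no filter, fewer libraries and a replicate block.

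The members, lists and tests were chosen with earlier results of these data known. Text names come from a rule: the 15 protein-coding genes with a symbol and 6 non-coding features that rose and that fell most, among those called, with groups that do not overlap, at least 10 CPM in the higher group, no near-identical copy and under 75% of the span covered, the 4 members with the smallest adjusted p in every list, the 8 features that gained and the 8 that lost most counts, the 6 genes at each end against the other agents, and 13 genes of replication control. Outside that rule, and chosen after their values were seen, are act1, spd2, ddb1, cul4, csn1, csn2, ssb1, cdc10, res2, rep1, chk1, rad3, wee1, cdc25, cdc2, cdc13, eng1, htb1, cnp1, tpi1, ght1, ght7 and ctr5. Some list members are counted and not named.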

Additional observations from a re-analysis of the deposited data

How the results depend on the processing

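Counts of features past the threshold were recomputed under other scalings, DESeq2, no filter on low counts, the hydroxyurea and untreated libraries alone, a replicate block and each library left out, and they moved by over 1.5 times only under some scalings. With act1 held equal 3669 features rose and 994 fell, 25 fell 2-fold, 35 non-coding features fell, and 4283 were higher and 461 lower than with the other agents. With library totals 34 fell 2-fold, 42 non-coding features fell and 1156 were lower than with the other agents. Upper quartile factors gave 37 and 42, and TMM factors made from the more abundant features 35 and 42, for falls of 2-fold and of non-coding features. With quantile normalization 291 rose and 197 fell 2-fold, and 326 non-coding features rose and 207 fell. Both act1 and the more abundant features were chosen after seeing the data. Leaving out 1 library of either group gave 2129 to 2156 rises, 2128 to 2135 falls, 676 to 681 and 62 to 73 at 2-fold, 618 to 622 and 54 to 67 for non-coding features, and 1851 to 2121 higher and 1733 to 1964 lower than with the other agents. The replicate block, on numbers that did not pair the libraries, gave 2243 rises and 2208 falls, 699 and 68 at 2-fold, 647 and 64 non-coding, and 2054 higher and 1925 lower than with the other agents. DESeq2 gave 2164 rises and 2258 falls, and with no filter on low counts 2210 rose and 2329 fell of 6231. Of 216 named features 205 kept their direction and side of the threshold with quantile normalization and 204 with act1 held equal. Signs reversed with quantile normalization for cti6-antisense-1 (-0.23, against 0.67 with TMM factors), cut6 (0.071), ura1 (0.10) and sxa1 (0.0044). With act1 held equal they reversed for sxa1 (0.072), fas2 (0.025), mcp7 (0.033), pfl2 (0.064), swi6 (0.018) and taz1 (0.017), and the log2 fold change of mam1 turned to 0.00691. The direction of changes smaller than the shift between scalings can depend on the scaling, and no spike-in counts were used here to choose among them. Features of few counts have wide errors.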

Other observations

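Groups in this section were chosen after their values were seen. The wtf genes, a family of spore-killing meiotic drivers found mostly on chromosome III, rose with hydroxyurea in 16 of 17 tested members and fell in none, where 40.3% of all features rose. Their median log2 fold change was 0.71 (0.89 with library totals, 0.40 with quantile normalization). The wtf genes had a median level of 26.4 CPM, in a level band whose median was 0.19. Among them wtf16 had 22.6 and 23.1 CPM in hydroxyurea cells, against 5.05 and 4.08 CPM in untreated cells (2.33 ± 0.12), and wtf20 rose by 1.91 ± 0.10. Without the 2 members that have a near-identical copy, 15 of 15 rose. Against the mean of the other agents 12 were higher and none lower in hydroxyurea cells, where 36.8% of all features were higher.

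Genes of the glucose-sensing cAMP pathway, to which pka1 and cgs1 belong, fell in 9 of 14 and rose in 4, where 38.8% of all features fell. Their median was -0.36 (-0.17 with library totals, -0.18 with quantile normalization). The median level of these genes was 141 CPM, in a level band whose median was -0.19. The G protein beta subunit gene git5 had 149.5 and 146 CPM in hydroxyurea cells, against 262 and 256 CPM in untreated cells (-0.81 ± 0.029), and its gamma subunit gene git11 fell, at -0.89. The phosphodiesterase gene cgs2 and the adenylate cyclase gene cyr1 fell, at -0.72 and -0.46. The glucose receptor gene git3 went up by 0.52 ± 0.043 and the cyclase-associated gene cap1 by 0.51 ± 0.029.

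Features within 100 kb of the ends of chromosomes I and II of assembly ASM294v3 rose in 92 of 134 tested and fell in 17, with a median of 1.27. In 69 of them (51.5%) the rise was 2-fold or more, against 11.2% of the 5481 features farther than that from any chromosome end, whose median was 0.0090. The ends of chromosome III were weaker in this, with 48 of 82 features up, 21 down, 24.4% up by 2-fold or more and a median of 0.33. Features at the ends of chromosomes I and II were also less expressed, with a median level of 6.74 CPM against 63.4 CPM farther in, and 36 have a near-identical copy. Without the copies 73 of 98 rose, with a median of 1.32, and with quantile normalization the median of all 134 was 0.39. The part of the low level in this rise was not tested. For the same 134 features the median against untreated cells was 0.41 with camptothecin, 0.76 with MMS and 1.60 with phleomycin. Against the mean of the other agents 56 were higher and 33 lower in hydroxyurea cells.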
